A study of Bos taurus with 12 samples.

Results

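The genes described here make, break down and move prostaglandins. They are the cyclooxygenase genes PTGS1 and PTGS2, the terminal synthase genes PTGES, PTGES3 and AKR1B1, the breakdown gene HPGD and the transporter gene SLCO2A1. They were taken by gene symbol, and all 7 genes had a probe set that the array annotation gives to that symbol alone. Together they have 11 probe sets of the 24016 on the array that are not controls, and of the 13292 with exactly 1 symbol. RNA came from bovine conceptuses collected on day 16 of gestation and from fibroblasts, with 3 arrays in each of 4 groups. In AI the blastocysts had formed in vivo in inseminated cows. In IVP both fertilization and culture took place in vitro. In SCNT the embryos were clones, made by placing a donor nucleus in an oocyte (somatic cell nuclear transfer). All 3 kinds had been transferred to synchronized cows on day 7 and were of comparable length at recovery. FB are the fibroblasts that served as nuclear donors, and went through no transfer or gestation. No breed, sex, cell line or fibroblast passage is named in the labels, nor whether an array holds 1 conceptus or a pool. The p-values below rest on the spread among the 3 arrays of a group, part of which may be technical.

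Prostaglandins are short-lived lipid signals made from arachidonic acid, a fatty acid cut from membrane lipids by phospholipases. Cyclooxygenases turn it into a common precursor, and terminal synthases turn that precursor into prostaglandin E or prostaglandin F. A transporter carries prostaglandins across the cell membrane, and a dehydrogenase inactivates them inside the cell. In ruminants the elongating trophoblast and the endometrium both release prostaglandins before the conceptus attaches, and those of the endometrium take part in luteolysis.

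Between 6359 and 6643 probe sets per array lay above log2 4, the level used here as the limit of detection. The lowest value of the table was 2.42, and 36.8% of all values lay within 0.01 of it. Trophoblast markers fitted the conceptus labels, since 6 of 8 had a mean above log2 4 in AI, IVP and SCNT alike and 0 of 8 in FB, with KRT8 and ELF5 below it everywhere. Of 10 fibroblast markers 8 were above it in FB and 1 (THY1) in each conceptus group. The tissue tag of the FB samples reads as that of embryos, while their description and these markers are those of fibroblasts. All 8 endometrium markers, among them OXTR and PGR, lay below log2 4 on every array. Leukocyte markers ran higher in AI, where the summed log2 signal of 8 genes was 27.7 to 31.5, against 20.2 to 22.7 in IVP and 20.6 to 22.1 in SCNT. CD48 and ITGB2 were the 2 above log2 4 in AI, while PTPRC, CD68, CSF1R and CD3E were at or near the lowest value of the table. Of 4 erythroid markers ALAS2 alone was above log2 4, and only in AI, with the summed signal at 13.4 to 15.1 there against 9.73 to 10.3 in IVP and SCNT. Of 9 hypoblast markers 6 were above it in AI, 5 in IVP and 4 in SCNT, and their summed signal was 52.3 to 57.1 in AI, 52.4 to 53.8 in IVP and 49.1 to 51.0 in SCNT. The bacterial control signal was higher on AI 2, IVP 2 and IVP 3 (mean log2 8.24 to 8.30) than on the other conceptus arrays (7.35 to 7.75) and lowest in FB (6.93 to 7.19). The 3' minus 5' signal, which rises as RNA degrades, was 0.21 to 0.89 for GAPDH on conceptus arrays and 0.01 to 0.06 on FB arrays, and 0.18 to 0.77 and -0.04 to 0.11 for actin. These values separate FB from the conceptuses, and their part in the differences from FB was not tested. A tissue amount of 10 mg is listed for the conceptus samples, and which part was taken was not examined here. In such tissue fewer cells of a type and less RNA per cell cannot be told apart.

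In day 16 conceptuses PTGS2, PTGES3, AKR1B1 and SLCO2A1 were detected on all 9 arrays, PTGES on 7 of 9, and PTGS1 and HPGD on 0 of 9. PTGES was higher in SCNT and in IVP than in AI, AKR1B1 was lower in IVP than in AI by a small margin, and no other member passed the test between conceptus groups. Against fibroblasts the members differed widely, with PTGS2 and SLCO2A1 undetected in FB and HPGD detected in FB alone. A change here means an adjusted p under 0.05 in limma's moderated test over all detected probe sets. In SCNT against AI 1 of 6 tested member probe sets changed, and it was higher, while 27.6% of the 6892 probe sets tested changed, 16.2% higher and 11.4% lower. In IVP against AI 2 of 6 changed, 1 higher and 1 lower, against 17.9% of all tested, 8.42% higher and 9.49% lower. In SCNT against IVP 0 of 6 changed in limma's test, against 0.580%, though 1 of 6 had an unadjusted p under 0.05. Without overlap between the arrays of both groups were 2 of 6 in SCNT against AI, 2 of 6 in IVP against AI and 1 of 6 in SCNT against IVP, beside 44.3%, 37.4% and 19.7% of all probe sets tested. Against FB 5 of 7 were higher and 1 lower in AI, where 77.2% of 8164 probe sets changed, 41.6% higher and 35.6% lower. In IVP 6 of 7 were higher than in FB and 1 lower, against 78.7% changed, 43.0% higher and 35.7% lower. In SCNT 6 of 7 were higher than in FB and 1 lower, against 79.9% changed, 45.0% higher and 34.8% lower. Testing was limited to probe sets that exceeded log2 4 on 3 or more of the arrays in the fit, so members undetected throughout are not among the 6 and 7. Both PTGS2 probe sets, SLCO2A1 and HPGD exceeded it on conceptus arrays alone or on FB arrays alone. They had to differ from FB once they entered the fit, so the counts against FB are a description and no p is given for these 4. The median difference of the members was 0.35 in SCNT against AI and 0.53 in IVP against AI on the log2 scale, and that of all probe sets tested was 0.08 and 0.02. Against FB the members' median was 2.95 for AI, 3.96 for IVP and 3.75 for SCNT, and that of all probe sets 0.11, 0.14 and 0.20. In each case the members' median against FB is the fitted value of SLCO2A1, 1 of those 4 probe sets. These medians are therefore a description as well.

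**Figure D1:**
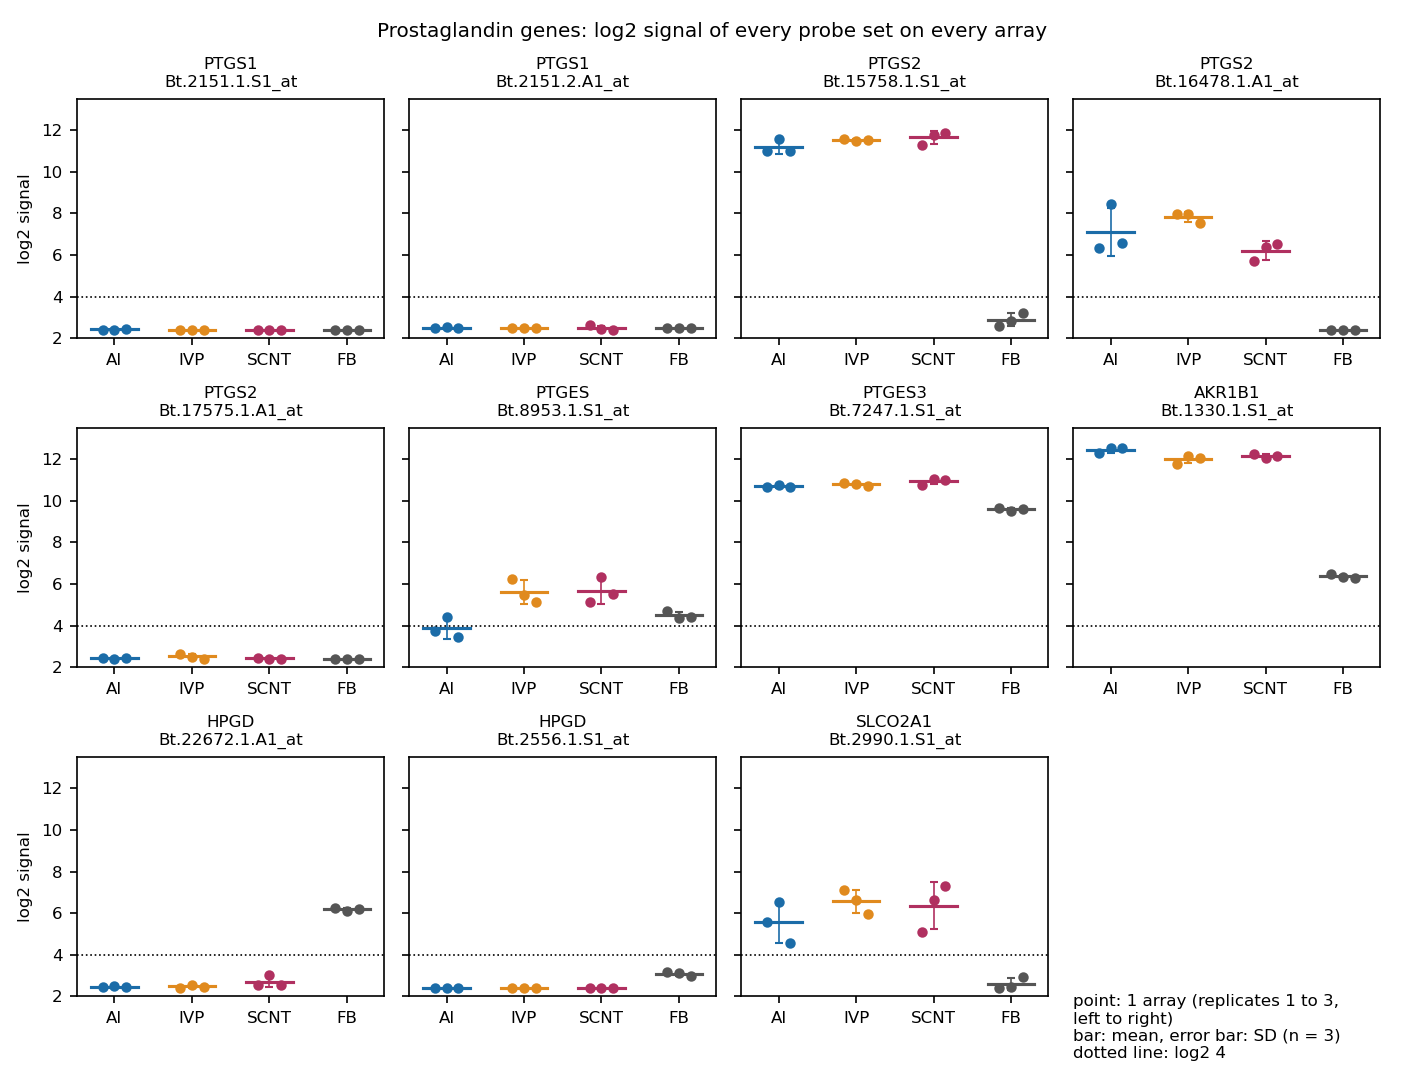
Log2 signal of the 11 probe sets (1 panel each) on each of the 12 arrays, with the mean as a bar and the SD as an error bar (n = 3) and log2 4 as a dotted line. PTGS2, AKR1B1 and SLCO2A1 are high in the 3 conceptus groups and low in FB, HPGD (Bt.22672.1.A1_at) is above the line in FB alone, and PTGES is lowest in AI.

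Of the cyclooxygenase genes PTGS2 alone was detected. PTGS1, the constitutive form of the enzyme, lay between 2.42 and 2.63 on all 12 arrays over both of its probe sets, which is at the lowest level of the table. Little PTGS1 RNA and probe sets that do not read the gene cannot be told apart from these values. PTGS2, the inducible form, has 3 probe sets. On the brightest (Bt.15758.1.S1_at) its log2 signal was 11.00, 11.57 and 10.98 on AI 1 to 3, 11.59, 11.50 and 11.53 on IVP 1 to 3, and 11.30, 11.78 and 11.87 on SCNT 1 to 3. In FB it read 2.60, 2.85 and 3.22. The conceptus groups overlapped, AI 2 standing with the IVP and SCNT arrays, and every conceptus array stood far above every FB array. PTGS2 was at least 145-fold higher in AI than in FB, at least 186-fold higher in IVP and at least 201-fold higher in SCNT. Such a fold is a lower bound, computed with undetected arrays raised to log2 4 wherever the group mean was under that level.

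Between conceptus groups the brightest PTGS2 probe set differed by 0.47 in SCNT against AI (95% interval 0.04 to 0.90, adjusted p = 0.0980), by 0.35 in IVP against AI (-0.08 to 0.78, adjusted p = 0.234) and by 0.11 in SCNT against IVP (-0.32 to 0.54, adjusted p = 0.862). None passed the test. Without AI 2 the difference between SCNT and AI was 0.66 and passed (adjusted p = 0.0247), and it passed without SCNT 1 as well (0.64, adjusted p = 0.0382). AI 1 and AI 3 were the lowest of the 9 conceptus arrays.

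A second PTGS2 probe set (Bt.16478.1.A1_at) gave another order of the groups. Its log2 signal was 6.35, 8.43 and 6.58 on AI 1 to 3, 7.98, 7.99 and 7.55 on IVP 1 to 3, and 5.71, 6.41 and 6.54 on SCNT 1 to 3, with 2.42 on every FB array. Against FB it was at least 8.71-fold higher in AI, 14.3-fold in IVP and 4.65-fold in SCNT. AI 2 stood far above AI 1 and AI 3 and was the highest array of all, while the IVP arrays all lay above the SCNT arrays. SCNT was lower than IVP by 1.62 (interval -2.63 to -0.61), which had an unadjusted p of 0.00475 but did not pass over all probe sets (adjusted p = 0.176). Against AI the differences were -0.90 in SCNT (adjusted p = 0.163) and 0.72 in IVP (adjusted p = 0.301). Both values turned on AI 2, without which the difference was -0.25 in SCNT (adjusted p = 0.510) and 1.37 in IVP, which then passed (adjusted p = 0.00943). The last probe set (Bt.17575.1.A1_at) stayed between 2.42 and 2.66 on all arrays, so of the 3 PTGS2 probe sets 2 were detected.

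The distance between the 2 detected PTGS2 probe sets was also set against the groups. The log2 signal of the first minus that of the second was 5.59, 5.37 and 5.33 on SCNT 1 to 3, 3.61, 3.51 and 3.98 on IVP 1 to 3, and 4.65, 3.14 and 4.40 on AI 1 to 3. All 3 SCNT arrays lay above all IVP and AI arrays. The mean gap was 1.74 larger in SCNT than in IVP and 1.37 larger than in AI, and IVP differed from AI by -0.37. The gap was examined after the values had been seen, so these differences are a description with no test. Which part of the transcript each probe set reads was not analysed here. The 3' minus 5' signal of actin was 0.77 on AI 2, the array with the smallest gap. It was 0.33 to 0.42 on the SCNT arrays and 0.18 to 0.56 on the other AI and IVP arrays. For GAPDH the order was another, with AI 2 the lowest of the conceptus arrays (0.21) and IVP 3 the highest (0.89). The part of RNA degradation in the gap was not tested. Between SCNT and IVP the 2 probe sets gave differences of opposite sign, and neither passed the test.

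**Figure D2:**
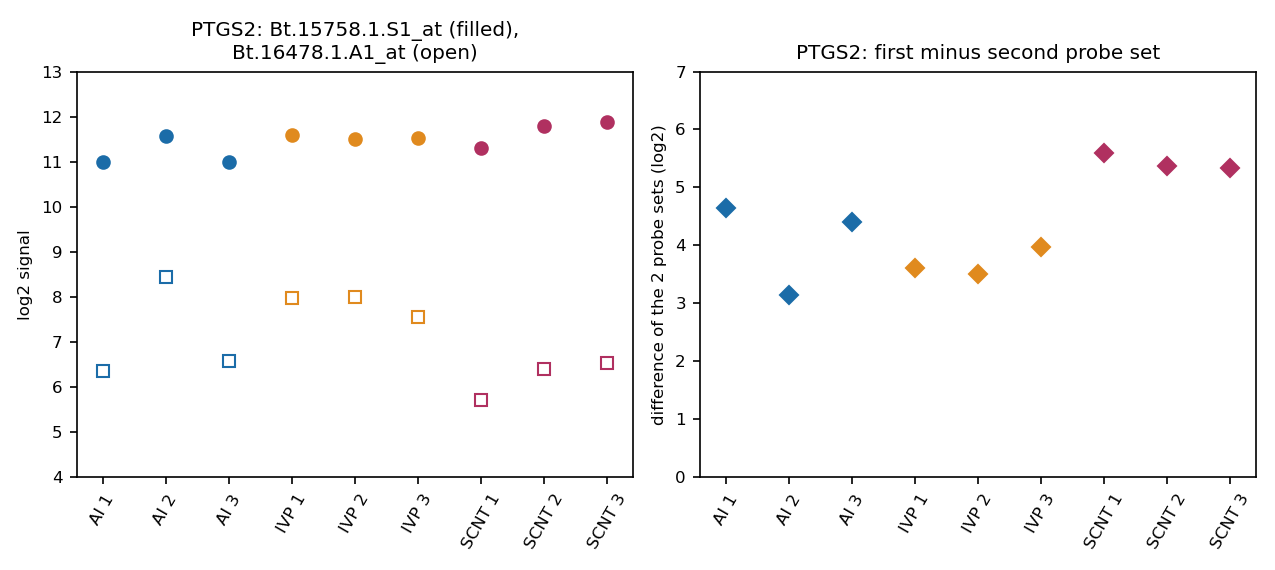
Left, log2 signal of the 2 detected PTGS2 probe sets on the 9 conceptus arrays (filled circles for Bt.15758.1.S1_at and open squares for Bt.16478.1.A1_at). Right, the first minus the second on each array, which is 5.33 to 5.59 on the SCNT arrays and 4.65 or less on all AI and IVP arrays.

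Among the terminal synthase genes PTGES moved between conceptus groups. PTGES encodes the membrane-bound, inducible synthase of prostaglandin E. Its log2 signal was 3.74, 4.45 and 3.44 on AI 1 to 3, 6.24, 5.47 and 5.14 on IVP 1 to 3, and 5.15, 6.34 and 5.55 on SCNT 1 to 3. All IVP and SCNT arrays lay above all AI arrays, of which AI 2 alone was above log2 4. PTGES was at least 2.89-fold higher in SCNT than in AI (1.80 ± 0.36 on the log2 scale, SE, adjusted p = 0.00514) and at least 2.77-fold higher in IVP (1.74 ± 0.36, SE, adjusted p = 0.00903). SCNT and IVP differed by 0.06 (interval -0.74 to 0.86, adjusted p = 0.968). These 2 comparisons share the AI arrays, and PTGES in AI was near or below the limit of detection. Both calls held whichever array was left out (adjusted p up to 0.0228 for SCNT and 0.0378 for IVP) and ended when undetected probe sets were tested too (adjusted p = 0.0855 and 0.126). Without AI 2, IVP 2 and IVP 3 the IVP difference, then resting on 1 IVP array, was 2.65.

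Fibroblasts held PTGES at 4.71, 4.38 and 4.41. The FB arrays overlapped with AI, since AI 2 exceeded FB 2 and FB 3, and lay below all IVP and SCNT arrays. IVP was 2.17-fold higher than FB (1.29 to 3.67, adjusted p = 0.0106) and SCNT 2.27-fold higher (1.34 to 3.83, adjusted p = 0.00765). The IVP call ended with undetected probe sets included (adjusted p = 0.0550) and stood at an adjusted p of 0.0496 without IVP 1. AI differed from FB by -0.62 and did not pass (adjusted p = 0.120), though it passed without AI 2 (-0.91, adjusted p = 0.0358) and in a fit of these 6 arrays alone (adjusted p = 0.0432). In ascending order PTGES therefore stood at 3.88 ± 0.52 in AI, 4.50 ± 0.18 in FB, 5.62 ± 0.56 in IVP and 5.68 ± 0.61 in SCNT (mean ± SD, n = 3 each). The differences between the neighbours AI and FB, and between IVP and SCNT, did not pass the test in the main fit. The higher PTGES of IVP and SCNT went with lower signal of CD48, ITGB2 and ALAS2, among the leukocyte and erythroid markers given above. Summed hypoblast marker signal was also lower in SCNT than in AI. The part of these markers in the result was not tested.

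PTGES3, which encodes a cytosolic synthase of prostaglandin E that is also the HSP90 co-chaperone p23, varied little among conceptuses. Its log2 signal was 10.65, 10.78 and 10.66 on AI 1 to 3, 10.83, 10.81 and 10.73 on IVP 1 to 3, and 10.77, 11.04 and 11.01 on SCNT 1 to 3. The AI, IVP and SCNT arrays overlapped, and SCNT 2 and SCNT 3 were the highest arrays. The differences were 0.24 in SCNT against AI (-0.03 to 0.51, adjusted p = 0.164), 0.09 in IVP against AI (-0.18 to 0.36, adjusted p = 0.631) and 0.15 in SCNT against IVP (-0.12 to 0.42, adjusted p = 0.656). In FB it read 9.64, 9.51 and 9.61, below every conceptus array. PTGES3 was 2.16-fold higher in AI, 2.30-fold in IVP and 2.55-fold in SCNT than in FB (adjusted p = 4.29e-07, 1.96e-07 and 6.31e-08).

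AKR1B1 encodes an aldose reductase that acts as a prostaglandin F synthase in cattle. Its log2 signal was 12.28, 12.54 and 12.54 on AI 1 to 3, 11.77, 12.14 and 12.06 on IVP 1 to 3, and 12.27, 12.05 and 12.14 on SCNT 1 to 3. The AI arrays lay above all others, narrowly so above SCNT 1. AKR1B1 was 1.38-fold lower in IVP than in AI (interval 1.11 to 1.71, adjusted p = 0.0472). That call stood at the threshold and ended without any 1 of the 6 arrays (adjusted p from 0.0504 without IVP 2 to 0.156 without IVP 1), with the arrays centred on their medians (adjusted p = 0.0640) and with undetected probe sets included (adjusted p = 0.136). The SCNT difference was -0.30 (-0.61 to 0.02, adjusted p = 0.144), and SCNT exceeded IVP by 0.17 (-0.15 to 0.48, adjusted p = 0.678). CD48 and ITGB2 of the leukocyte markers and ALAS2 of the erythroid ones were lower in IVP than in AI, and their part here was not tested.

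Against fibroblasts AKR1B1 differed strongly, with FB at 6.46, 6.36 and 6.32. It was 67.2-fold higher in AI (interval 56.1 to 80.5), 48.8-fold in IVP (40.7 to 58.4) and 54.7-fold in SCNT (45.7 to 65.5), with adjusted p of 3.47e-13, 7.32e-13 and 5.50e-13. Of the members detected in both conceptuses and fibroblasts (PTGES, PTGES3 and AKR1B1), AKR1B1 had the widest difference.

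**Figure D3:**
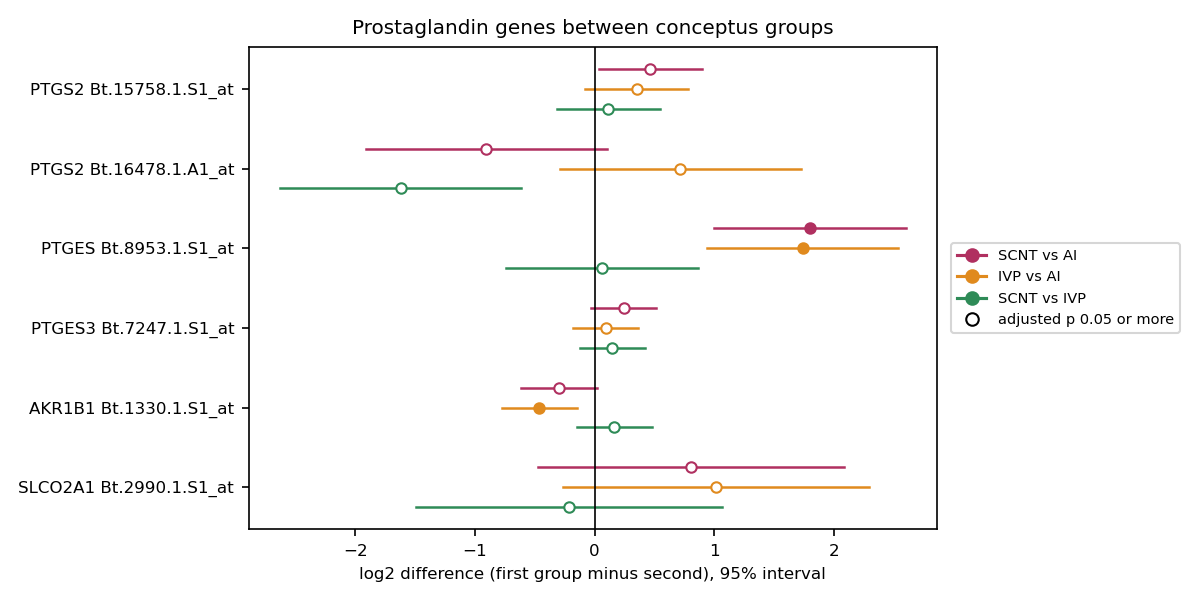
Log2 differences between conceptus groups with 95% intervals for the 6 member probe sets tested, as circles that are filled where the adjusted p was under 0.05. PTGES is filled for SCNT and IVP against AI, AKR1B1 for IVP against AI, and the 2 PTGS2 probe sets lie on opposite sides of 0 for SCNT against AI and SCNT against IVP.

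HPGD was detected in fibroblasts and not in conceptuses, and SLCO2A1 in conceptuses and not in fibroblasts. HPGD encodes the dehydrogenase that inactivates prostaglandins. On its brighter probe set (Bt.22672.1.A1_at) FB read 6.23, 6.11 and 6.22, while the conceptus arrays ran from 2.43 to 3.02, the highest being SCNT 2. All 9 lay below the limit of detection, so conceptus groups were not compared. HPGD was at least 4.55-fold lower in AI, IVP and SCNT than in FB, the same bound for each because all 9 arrays were set to 4. It entered the fit through the 3 FB arrays alone, so its p-values are not given as support. The second probe set (Bt.2556.1.S1_at) read 3.16, 3.14 and 2.98 in FB and 2.42 on every conceptus array. Its arrays were ordered the same way, but all were below log2 4, so it was not tested.

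SLCO2A1 encodes the prostaglandin transporter that carries prostaglandins into cells. Its log2 signal was 5.57, 6.53 and 4.56 on AI 1 to 3, 7.09, 6.64 and 5.98 on IVP 1 to 3, and 5.11, 6.65 and 7.33 on SCNT 1 to 3. The groups overlapped, and the lowest and highest SCNT arrays were further apart than the means of any 2 conceptus groups. SLCO2A1 differed by 0.80 in SCNT against AI (-0.48 to 2.08, adjusted p = 0.325), by 1.02 in IVP against AI (-0.26 to 2.30, adjusted p = 0.247) and by -0.21 in SCNT against IVP (-1.49 to 1.07, adjusted p = 0.925). The value for SCNT ran from 0.31 without AI 3 to 1.43 without SCNT 1, and that for IVP from 0.52 without AI 3 to 1.51 without AI 2, and none of these passed. With this spread the intervals run from below 0 to 2.08 and 2.30 against AI, so neither a sizeable rise nor a small fall could be told from no difference. In FB it read 2.42, 2.46 and 2.95, below detection. It was at least 2.94-fold higher in AI, 5.95-fold in IVP and 5.14-fold in SCNT than in FB.

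**Figure D4:**
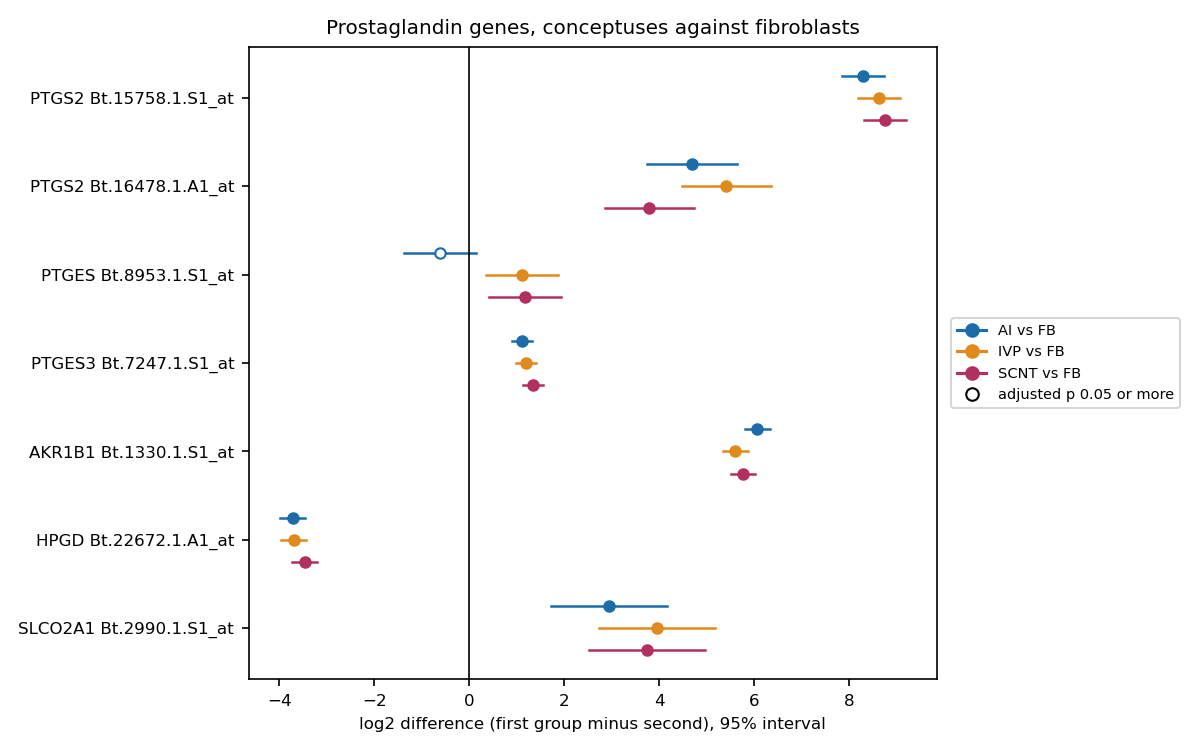
Log2 differences of each conceptus group from FB with 95% intervals for the 7 member probe sets tested, as circles that are filled where the adjusted p was under 0.05. HPGD lies below 0 for all 3 groups, PTGS2, PTGES3, AKR1B1 and SLCO2A1 lie above 0, and PTGES lies above 0 for IVP and SCNT and is open for AI. Values for probe sets undetected in 1 of the groups are the fitted ones, not bounds. PTGS2, SLCO2A1 and HPGD had to differ from FB once they entered the fit, so their filled circles are a description and no support.

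The members also differed in how much arrays of 1 conceptus group varied. The pooled SD within groups was 0.93 for SLCO2A1, 0.72 for the second PTGS2 probe set and 0.56 for PTGES, higher than that of 99.7%, 99.0% and 97.8% of the 6892 probe sets tested. It was 0.27 for the first PTGS2 probe set, 0.15 for AKR1B1 and 0.10 for PTGES3, against a median of 0.20 over all probe sets. PTGES and SLCO2A1 ordered the arrays alike within AI (AI 2, AI 1, AI 3 from high to low) and within IVP (IVP 1, IVP 2, IVP 3), but not within SCNT, where SCNT 2 was highest for PTGES and SCNT 3 for SLCO2A1.

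The genes most like each member over the 9 conceptus arrays were found by Pearson's r of log2 signal among 4348 other detected genes. These r describe 9 arrays that share group differences and normalization, and they carry no test. For PTGS2 all r given here belong to its brightest probe set (Bt.15758.1.S1_at) alone. PTGS2 was most like VMP1, a gene of autophagy (0.97), CEPT1 of phospholipid synthesis (0.96) and TMEM161B (0.95). PTGES was most like CUTC (0.97), the proton pump subunit gene ATP6V0A4 (0.97) and the lipoprotein receptor gene SCARB1 (0.97). PTGES3 was most like TRMT10C, a mitochondrial tRNA-processing gene (0.96), SEC63 of protein import into the endoplasmic reticulum (0.96) and UBLCP1 (0.96). AKR1B1 was most like the fatty acid-binding protein gene FABP5 (0.93), the survivin gene BIRC5 (0.92) and PPIF (0.92). SLCO2A1 was most like TAGLN (0.96), VMP1 (0.91) and GALNT1 (0.91). Among the members, PTGS2 had r of 0.88 with PTGES3, 0.87 with SLCO2A1 and 0.83 with PTGES, while AKR1B1 had negative r with every other, from -0.82 with PTGES to -0.45 with PTGES3.

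The rest of the pathway was read from a list of 52 names, of which 37 had a probe set of that symbol alone and 14 were tested in conceptuses, with 18 probe sets. In SCNT against AI 2 genes were higher and 2 lower, and in IVP against AI 1 was higher and 3 lower. That is 22.2% of the 18 probe sets in both, where 27.6% and 17.9% of all tested probe sets changed. In SCNT against IVP 0 of 18 changed, against 0.580% of all tested probe sets. Their median difference was -0.22 in SCNT and 0.01 in IVP against AI. Against FB, where 20 probe sets of the list were tested, 10 were higher and 9 lower in AI, 11 and 7 in IVP, and 10 and 8 in SCNT.

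Of 13 names of fatty acid release 7 had a probe set and 4 were tested in conceptuses. The phospholipase genes PLA2G4A, PLA2G4C, PLA2G6, PLA2G2A and PLA2G5 had no probe set and could not be read. Among those tested, PLA2G12A of the secreted phospholipases was higher in both SCNT and IVP than in AI. Its first probe set (Bt.22589.1.S1_at) read 3.96, 4.24 and 4.20 on AI 1 to 3, 5.21, 5.11 and 5.24 on IVP 1 to 3, and 5.71, 6.10 and 5.43 on SCNT 1 to 3, with no overlap between the conceptus groups. It was 3.06-fold higher in SCNT (adjusted p = 1.39e-04) and 2.08-fold in IVP (adjusted p = 0.00255) than in AI. On this probe set PLA2G12A was near the limit of detection in AI (mean 4.13). Its second probe set (Bt.28112.1.S1_at) differed by 0.50 and 0.26 in the same direction and did not pass (adjusted p = 0.165 and 0.496). PLA2G15, a lysosomal phospholipase gene, fell in IVP by 0.86 on its dimmer probe set (adjusted p = 0.0191). The brighter one differed by -0.48 (adjusted p = 0.0975). That call ended without AI 1, AI 3, IVP 1 or IVP 3 (adjusted p up to 0.0672). Against FB, PLA2G15 was 41.4-fold higher in AI, 29.7-fold in IVP and 30.9-fold in SCNT on the brighter probe set. PLA2G7, the platelet-activating factor acetylhydrolase gene, was at least 78.5-fold, 75.8-fold and 57.2-fold higher, with 9.52 to 10.38 on the conceptus arrays and 3.24 or less in FB. PLA2R1, a receptor for secreted phospholipases named after its values were seen, read 4.26, 3.99 and 5.07 in AI on 1 of its 2 probe sets and 2.94 or less on all other arrays, and was not tested because only 2 arrays exceeded log2 4.

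Other terminal synthases did not pass between conceptus groups. Of 10 such names 7 had a probe set and 2 were tested, PTGIS of prostacyclin synthesis at 6.75 or less on the conceptus arrays and PRXL2B at 4.13 to 4.52. Both were lower in every conceptus group than in FB, with differences of -1.88 in AI, -2.11 in IVP and -2.04 in SCNT for PTGIS and of -2.06, -1.96 and -2.07 for PRXL2B, all at an adjusted p of 9.97e-07 or less. Of the breakdown genes downstream of HPGD, PTGR2 rose 1.52-fold in SCNT against AI (adjusted p = 0.0250), with its second probe set at 0.31 (adjusted p = 0.119). On the first it was also higher than FB, by 1.92-fold in AI, 2.50-fold in IVP and 2.92-fold in SCNT. Leaving out AI 2, AI 3, SCNT 1 or SCNT 2 ended the PTGR2 call of SCNT against AI (adjusted p at most 0.0830). PTGR1, on the only detected of its 2 probe sets, read 5.39, 4.96 and 4.88 on SCNT 1 to 3 against 5.59 to 7.31 on the AI and IVP arrays, and did not pass (adjusted p = 0.0669 against AI and 0.209 against IVP).

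Surface receptors of prostaglandins were not detected in conceptuses. Of 10 names 5 had probe sets (PTGER2, PTGER3, PTGER4, PTGFR and PTGDR2), and their 8 probe sets reached at most 3.44 on any conceptus array. PTGER4, a receptor of prostaglandin E, read 5.59, 5.50 and 5.35 in FB. Of 6 nuclear receptor genes 3 were tested. RXRA, the partner of the PPAR receptors, was 2.21-fold lower in SCNT and 2.34-fold lower in IVP than in AI (adjusted p = 0.0103 and 0.0114). It read 6.39, 5.99 and 7.22 on AI 1 to 3 and 5.07 to 5.57 on all IVP and SCNT arrays. PPARG and PPARD did not pass, with adjusted p of 0.897 and 0.0586 in SCNT and 0.315 and 0.764 in IVP against AI. ANXA2, of the annexins, fell by 0.58 in SCNT and 0.62 in IVP (adjusted p = 0.0293 and 0.0296), calls that ended without AI 1 or AI 3 (adjusted p up to 0.102). They also ended without SCNT 2 or SCNT 3 (adjusted p = 0.117 and 0.0680) and without IVP 3 (adjusted p = 0.0995). The lipoxygenase genes ALOX5, ALOX12 and ALOX15, the activating protein gene ALOX5AP and the transporter genes SLCO3A1 and SLCO4A1 lay below log2 4 on every array. CD48 and ITGB2 of the leukocyte markers and ALAS2 of the erythroid ones were higher in AI, and their part in these differences was not tested.

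**Figure D5:**
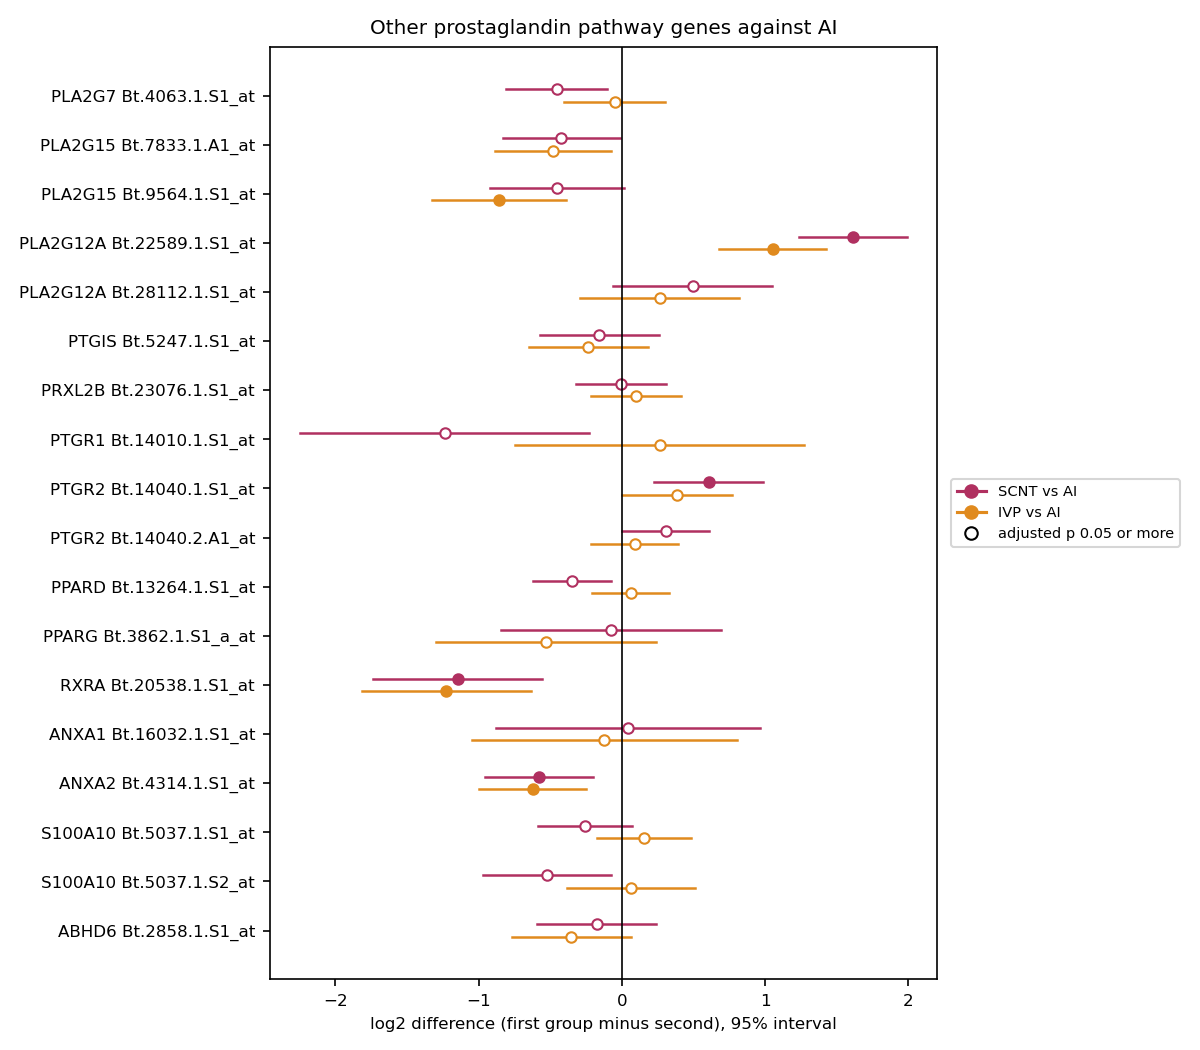
Log2 differences of SCNT and IVP from AI with 95% intervals for the 18 other pathway probe sets tested, as circles that are filled where the adjusted p was under 0.05. PLA2G12A (Bt.22589.1.S1_at) lies above 0 and RXRA and ANXA2 below 0 for both comparisons, which share the AI arrays.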

How the data were processed

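Total RNA was amplified with a 3' in vitro transcription kit, biotinylated and read on the Affymetrix bovine array, as described in the labels' protocols. The deposited values are log2 signals per probe set, for which GCRMA and limma are the tools named in the submitters' processing notes. No version is stated, and joint normalization of the 12 arrays is not given in the sources used here. Values were used as deposited. Excluding 112 control probe sets left 24016, and symbols came from the platform annotation (of 13292 probe sets with 1 symbol, 13263 had a gene ID found in RefSeq's ARS-UCD2.0 gene table, and 0 symbols were updated; 86 had several symbols and 10638 none).

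Those exceeding log2 4 on 3 or more arrays entered linear models (limma 3.58.1, R 4.3.3) with 1 coefficient per group: 6892 on the 9 conceptus arrays for comparisons among them and 8164 on all 12 arrays for comparisons with FB. Tests were two-sided moderated tests, adjusted by Benjamini and Hochberg over all probe sets tested. The median standard error was 0.16 among conceptuses. The number of arrays limits the precision. The procedure was tested on simulated data. Every member was named, as were pathway genes that passed between conceptus groups; other pathway genes named were chosen after their values were seen; likeness was ranked on the brightest detected probe set, giving 3 genes each. Alternatives were filters, normalizations, a floor, the variance model, the arrays in the fit, a replicate block and the omission of arrays. Members, lists and rules were chosen with earlier results of these data known. No sequence tables were used.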

Additional observations from a re-analysis of the deposited data

How the results depend on the processing

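Of 569 values of the member probe sets under other settings, 542 kept their direction and their side of the threshold. The count of changed members in SCNT against AI was 1 to 2 when each array was left out, 2 without AI 2, IVP 2 and IVP 3 (the arrays of high control signal; 1 IVP array then remains, assumed to vary like the other groups), and 0 when undetected probe sets were tested too (3 at an unadjusted p under 0.05 in limma). In IVP against AI it was 1 to 2 when each array was left out, 1 with the arrays centred on their medians, 1 with a replicate block and 0 with undetected probe sets (2 at an unadjusted p under 0.05). Counts against FB stayed within 1.5 times under every setting. Without any FB array HPGD dropped out, since it then exceeded log2 4 on 2 arrays only. The PTGES difference between SCNT and IVP changed sign, at -0.56 without AI 2, IVP 2 and IVP 3 and from -0.27 to 0.37 when each array was left out, as did that of SLCO2A1, from -0.69 to 0.42; neither passed anywhere.

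Over all probe sets, 1902 changed in SCNT against AI, 984 with undetected probe sets and 1167 without SCNT 2. In IVP against AI 1234 changed, 484 with undetected probe sets, 671 and 693 when AI 3 or AI 1 was left out, 795 and 817 when IVP 1 or IVP 3 was, and 415 without AI 2, IVP 2 and IVP 3. The 40 of SCNT against IVP became 127 with all 12 arrays in the fit, 23 with the block, 7 with undetected probe sets or without SCNT 2, 8 to 18 when IVP 2, IVP 3, SCNT 1 or SCNT 3 was left out, and 3 without AI 2, IVP 2 and IVP 3. The replicate numbers share nothing in the labels, and deviations of same-numbered arrays correlated at -0.15 to 0.21, with 4 of 12 arrays most like 1 of their own number. With the replicate block the AKR1B1 call ended in IVP against AI (adjusted p = 0.0706) and the PTGES calls held (adjusted p = 0.00530 and 0.00837). For the other pathway genes, whose alternatives were chosen after seeing the data, testing undetected probe sets too ended the calls of RXRA, ANXA2, PTGR2 and PLA2G15 (adjusted p from 0.119 to 0.149) and neither of PLA2G12A, and with the lone IVP array left by omitting those 3 arrays the IVP calls of PLA2G12A, RXRA, PLA2G15 and ANXA2 were not held either, at values of 1.13, -1.23, -0.87 and -0.58, which with 1 array say nothing about the control signal. The causes of these changes were not tested.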
